A study of Mus musculus with 6 samples.

Results

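Actb and Gapdh, the genes for cytoplasmic β-actin and for the glycolytic enzyme glyceraldehyde-3-phosphate dehydrogenase, were examined for ubiquitylated histone H2B (H2Bub) in C2C12, a mouse myoblast line that fuses into myotubes. The members were taken by position as 2 genes, Actb at chr5:143664500-143668700 and Gapdh at chr6:125111500-125115900 (mm9), set against 613730 consecutive windows of 4 kb that held reads on chromosomes 1 to 19 and X. Myotubes (MT) had been differentiated for 96 h in 2% horse serum, and myoblasts (MB) were growing in 10% fetal bovine serum at about 40% confluency. All libraries came from chromatin digested with micrococcal nuclease and precipitated with 1 H2Bub antibody clone, and there were 3 libraries per group. The antibody lot number differs between all libraries, so lot cannot be told apart from group. The cell type label reads C2C12 and the source names C1C12. The series states no genotype or transgene for either group. Replicates carry numbers, but separate cultures are not stated, so p-values measure the spread between these libraries, which may be technical.

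H2Bub is laid down by the RNF20 and RNF40 ubiquitin ligases as RNA polymerase II moves through a gene, and it is known as a mark of transcribed gene bodies past the start site. Actb and Gapdh are transcribed in nearly all cells and serve as loading controls in expression assays. In muscle fibres the sarcomeric α-actins largely take the place of β-actin, while GAPDH belongs to the glycolysis that fuels contraction.

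Both genes are transcribed from the minus strand, so the 5′ end of each lies at the higher coordinate. The strand of Gapdh was read from the RefSeq promoter table, whereas that of Actb is general knowledge of the mouse genome and was not checked against a table, and the 5′, 3′ and upstream sides of Actb rest on it. No mm9 annotation was used here, so the intervals could not be set against exon positions, and the labelled cell type was not set against marker genes. The intervals span 4201 bp for Actb and 4401 bp for Gapdh, shorter than the full extent of all RefSeq models on GRCm38, which is 4862 bp for Actb and 4616 bp for Gapdh. The RefSeq promoter table holds a start for Gapdh and none was matched for Actb. The 250 bases before that Gapdh start are shown because the 5′ end of the gene is where the read profile described below begins, with each CG in capitals (RefSeq, GRCm38.p6, minus strand, chr6:125165774-125166023, printed in the direction of transcription).
Gapdh promoter: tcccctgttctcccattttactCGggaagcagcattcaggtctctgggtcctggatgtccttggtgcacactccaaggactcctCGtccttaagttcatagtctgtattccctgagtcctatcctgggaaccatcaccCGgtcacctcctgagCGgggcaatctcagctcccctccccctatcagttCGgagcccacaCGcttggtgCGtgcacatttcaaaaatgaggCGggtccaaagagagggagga
These bases hold 8 CG pairs, against a median of 6 over 32851 RefSeq promoters of the same length, and 43.0% of those promoters have at least as many. The share of G and C was 55.6%, against a median of 52.4%. A search of both strands found no match to the letters of the TATA box, TATAAA, which 12.4% of all promoters hold. Nor was there a match to the CCAAT box, named by its letters, which 33.8% of all promoters hold. The GC box, GGGCGG, which 32.7% of all promoters hold, had none either; these motifs do not overlap one another. The coordinates of the reads (mm9) and of the promoter (GRCm38) were not converted into each other.

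The myotube libraries held 8759266, 9242611 and 14467774 reads on chromosomes 1 to 19 and X, and the myoblast libraries 9285330, 10491948 and 15891204. Few of these fell in either gene, with 27 MT reads and 79 MB reads in Actb and 40 MT reads and 97 MB reads in Gapdh, so the precision of every value below is set by small counts.

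Actb carried less H2Bub signal in myotubes than in myoblasts. Read density was 0.245, 0.0515 and 0.263 reads per kilobase and per 1000000 reads (RPKM) in MT replicates 1, 2 and 3, from 9, 2 and 16 reads, against 0.538, 0.363 and 0.629 RPKM in MB replicates 1, 2 and 3, from 21, 16 and 42 reads. The groups did not overlap, as in 14.7% of all 4 kb windows tested (every MT library below every MB library), and MT replicate 2 stood lowest. Its 2 reads have an exact Poisson 95% interval of 0.242 to 7.22 reads, which covers counting error only. The means were 0.186 ± 0.117 RPKM in MT and 0.510 ± 0.135 RPKM in MB (SD, n = 3 each), a ratio of 0.366.

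Gapdh was lower in myotubes as well, with less spread among the MT libraries. It had 0.285, 0.246 and 0.298 RPKM in MT replicates 1, 2 and 3, from 11, 10 and 19 reads, against 0.514, 0.693 and 0.629 RPKM in MB replicates 1, 2 and 3, from 21, 32 and 44 reads. Every MT library lay below every MB library, as in 14.7% of all 4 kb windows tested. The means were 0.276 ± 0.0274 RPKM in MT and 0.612 ± 0.0908 RPKM in MB (SD, n = 3 each), a ratio of 0.452. For each gene the exact permutation test gave p = 0.1 (two-sided), the smallest p that 3 against 3 libraries allow. These are populations of cells, so fewer cells with the mark and less of it per cell cannot be told apart. Input chromatin was not analysed here, so H2Bub per nucleosome and the number of nucleosomes cannot be told apart either. The share of sequence to which reads could be mapped belongs to the interval and not to the group. It bears on the comparisons of each gene with flanks and other windows below, and was not measured.

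**Figure D1:**
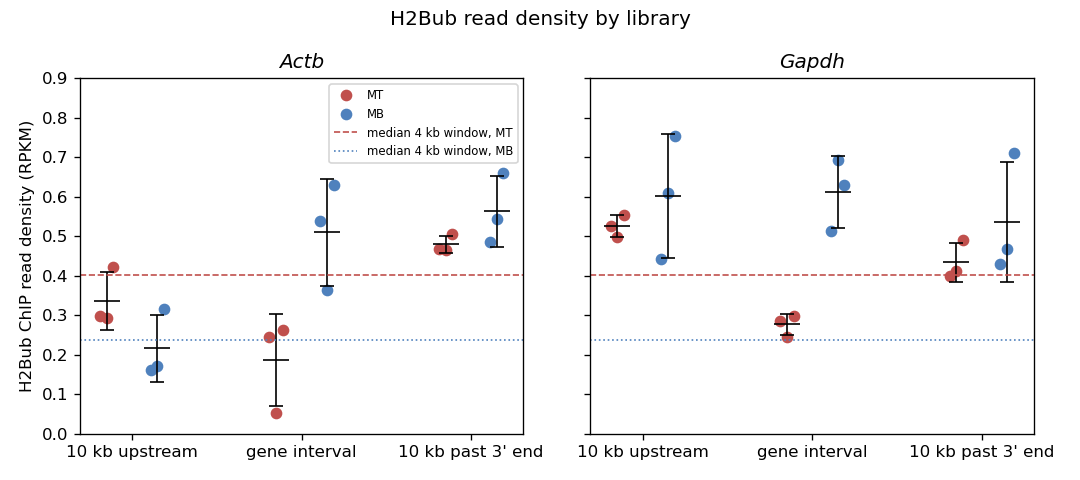
H2Bub read density (RPKM) of Actb and Gapdh and of the 10 kb on each side, 1 point per library, with MT left of MB, bars for mean ± SD (n = 3) and lines for the mean over libraries of the median 4 kb window (0.401 RPKM in MT, 0.236 RPKM in MB). Inside both gene intervals every MT point lies below every MB point, as in 14.7% of the 4 kb windows tested. The flanks overlap, and upstream of Actb they lean the other way.

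Neither gene was rich in H2Bub in myoblasts when set against H2Bub domains, here runs of MB peaks with at most 3 kb between neighbours and a span of 10 kb or more. The median 4 kb window inside such domains had 0.624 ± 0.0957 RPKM in MT and 2.09 ± 0.200 RPKM in MB (SD, n = 3 each). In MB, Actb lay above 0.00308% to 0.185% of these domain windows and Gapdh above 0.0677% to 0.185%, so both were near the bottom of the domain range. The domains were built from MB peaks called on the same libraries, so a low rank of places outside them follows in part from that choice. Against all 4 kb windows, the percentile of Actb was 21.5, 3.97 and 24.5 in MT replicates 1, 2 and 3 and 85.3, 79.3 and 86.7 in MB replicates 1, 2 and 3. For Gapdh it was 25.6, 20.8 and 30.1 in the MT replicates and 85.3, 87.9 and 86.7 in the MB replicates. Both genes thus ranked below the median window in every myotube library and in the upper part of the range, outside the domains, in every myoblast library.

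Across all windows the fall in both genes passed the test. In limma voom fitted over 4 kb windows together with the 2 gene intervals, Actb had a log2 fold change of -1.47 (SE 0.42, limma adjusted p = 0.004839) and Gapdh one of -1.09 (SE 0.28, limma adjusted p = 0.002199), both lower in MT in 3 of 3 libraries. These p-values use a variance partly shared across all rows tested, and so do not measure the spread of each gene alone. Both members, 2 of 2, were called lower, where 14.3% of the 456773 windows tested were lower in MT and 50.2% were higher. Actb passed the floor on low counts in 3 MB libraries and in 2 MT libraries, and Gapdh in all 6. The median window had a log2 fold change of 0.72 under scaling by total reads, and relative to it Actb was at -2.19 and Gapdh at -1.81. What is called background scaling here used trimmed means of log ratios over 10 kb windows, and windows with peaks were not left out. It centres most windows by design, and the median moved to 0.03. With it Actb had -2.19 (limma adjusted p = 4.529e-05) and Gapdh -1.79 (limma adjusted p = 2.476e-06), and 20.4% of windows were lower and 0.963% higher. Without MT replicate 2 the log2 fold change of Actb was -0.96 (limma adjusted p = 0.02248).

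The fall of both genes lay in the range of windows with myoblast peaks. Of the 380844 tested windows without any peak, 1.80% were lower in MT, and their median log2 fold change was 0.80. A lower log2 fold change than that of Actb was found in 0.0431% of them, and a lower one than that of Gapdh in 0.230%. Windows with 1 MB peak and no MT peak were lower in 62.3% of 13494 cases with a median of -0.69, and windows with 2 or 3 MB peaks in 93.4% of 18287 cases with a median of -1.17. Each gene touches 1 MB peak, described below. Of the windows with 1 MB peak and no MT peak, 5.11% had a lower log2 fold change than Actb and 16.9% a lower one than Gapdh. These windows were sorted by peaks called on the same libraries, so their direction follows in part from that choice.

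**Figure D2:**
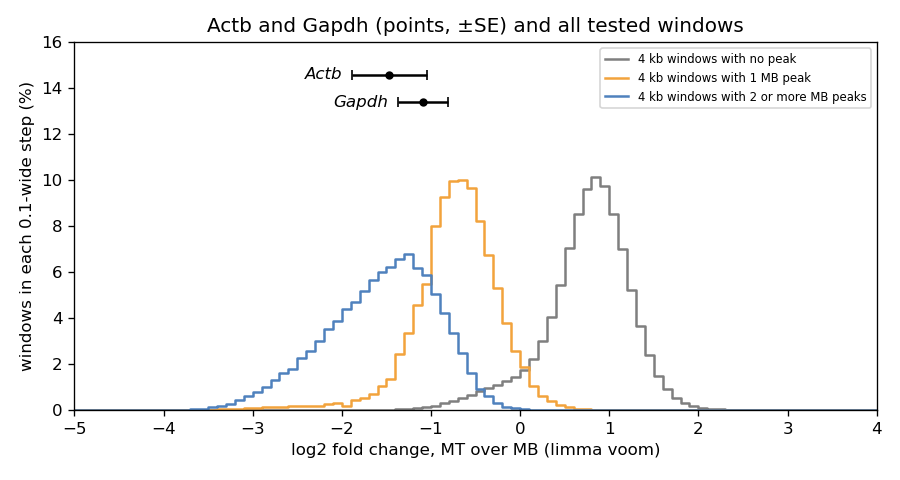
Distribution of the log2 fold change (MT over MB, limma voom, scaling by total reads) of tested 4 kb windows with no peak, with 1 MB peak and with 2 or more MB peaks (no MT peak in either), in percent of each class per step; points with bars give Actb (-1.47) and Gapdh (-1.09) ± SE at an arbitrary height. Both genes lie left of nearly all windows without a peak and within the range of windows with MB peaks.

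With scaling by total reads, none of the 4 flanks of 10 kb was called lower in MT. In the 10 kb upstream of Actb, toward Fscn1 (which encodes the actin-bundling protein fascin) in the RefSeq gene order, density was 0.337 ± 0.0734 RPKM in MT and 0.216 ± 0.0856 RPKM in MB (SD, n = 3 each), a log2 fold change of 0.65 (SE 0.26, limma adjusted p = 0.02286). That call was lost without MT replicate 3 (log2 fold change 0.43, limma adjusted p = 0.1913), MB replicate 1 (0.49, limma adjusted p = 0.0944) or MB replicate 2 (0.49, limma adjusted p = 0.1092), and with background scaling the value was -0.07 (limma adjusted p = 0.8919). In the 10 kb past the 3′ end of Actb, toward the long noncoding RNA Gm38733 and the F-box gene Fbxl18, density was 0.479 ± 0.0219 RPKM in MT and 0.563 ± 0.0897 RPKM in MB (log2 fold change -0.21, limma adjusted p = 0.2982).

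Around Gapdh neither flank passed the test. The 10 kb upstream, toward Ncapd2 (a condensin subunit), had 0.525 ± 0.0276 RPKM in MT and 0.602 ± 0.157 RPKM in MB (SD, n = 3 each; log2 fold change -0.16, limma adjusted p = 0.4605). The 10 kb past the 3′ end, toward Iffo1 (an intermediate filament family member), had 0.434 ± 0.0496 RPKM in MT and 0.536 ± 0.152 RPKM in MB (log2 fold change -0.26, limma adjusted p = 0.2338). Of the 4 flanks, 1 was thus higher in MT and 0 lower, where 70.9% of 10 kb windows were higher and 13.1% lower. At an unadjusted p under 0.05 and with limma-trend the counts of lower flanks were 0 as well. With background scaling 3 of the 4 flanks were lower, the one past the 3′ end of Actb at -0.90, the one upstream of Gapdh at -0.83 and the one past its 3′ end at -0.94, where 18.6% of 10 kb windows were lower and 2.27% higher.

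Ratios within a library do not depend on the scaling between libraries. Ratios to the flanks were taken with 0.5 reads added to each count, which weighs most where reads are few. On that basis Actb had 0.670, 0.169 and 0.584 times the density of its flanks in MT replicates 1, 2 and 3, against 1.69, 1.04 and 1.30 times in MB replicates 1, 2 and 3. Gapdh had 0.641, 0.565 and 0.585 times in the MT replicates, against 1.20, 1.30 and 0.866 times in the MB replicates. In myotubes both genes were therefore sparser in reads than their surroundings in 3 of 3 libraries, and in myoblasts they were denser in 3 of 3 for Actb and 2 of 3 for Gapdh. The difference in the log2 ratio was -1.71 for Actb and -0.89 for Gapdh (MT minus MB; exact permutation test, two-sided, p = 0.1 for each, the smallest possible, and 0.25 after Benjamini-Hochberg adjustment over 5 such values). Without MT replicate 2, which had 2 reads in Actb, the difference for Actb was -1.08. Set against 4 kb windows without peaks within 250 kb, Actb had 0.466 ± 0.267 times their density in MT and 1.48 ± 0.367 times in MB, and Gapdh 0.668 ± 0.0365 times in MT and 2.21 ± 0.527 times in MB (SD, n = 3 each).

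Within the genes the reads were spread unevenly. In 250 bp bins counted from the 5′ end of the interval, Actb had its densest bin at 1750 to 2000 bp in MT (0.785 ± 0.510 RPKM) and at 2000 to 2250 bp in MB (2.16 ± 1.11 RPKM; SD, n = 3 each). These neighbouring bins, joined after their values were seen, held 10 MT reads and 31 MB reads, which is 37.0% of the MT reads and 39.2% of the MB reads of the interval. The bin at 2000 to 2250 bp had 1, 0 and 3 reads in MT replicates 1, 2 and 3 and 8, 4 and 6 reads in MB replicates 1, 2 and 3, and it was the 1 Actb bin in which every MT library lay below every MB library.

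In Gapdh the densest bin was at 1000 to 1250 bp in both groups, with 0.845 ± 0.854 RPKM in MT and 1.70 ± 0.523 RPKM in MB (SD, n = 3 each). The stretch from 1000 to 2500 bp, also chosen after its values were seen, held 25 MT reads and 69 MB reads, 62.5% of the MT reads and 71.1% of the MB reads. Counting bins with 5 reads or more over all libraries, every MT library lay below every MB library in 1 of 9 Actb bins and 3 of 9 Gapdh bins, where 8.92% of such bins in the genome did so. The bins are too thin for a test of each.

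The first 500 bp of the Actb interval held 1 MT read and 6 MB reads, and those of Gapdh 4 MT reads and 4 MB reads. In MB these bins had 0.252 and 0.295 RPKM in Actb and 0.168 and 0.211 RPKM in Gapdh. The median 4 kb window had 0.236 RPKM in MB. In MT they had 0.152 and 0 RPKM in Actb and 0.244 and 0.236 RPKM in Gapdh, against 0.401 RPKM in the median window. Start sites were not located on mm9, so these bins need not hold them. The MT mean was not below the MB mean in 8 of the 18 Gapdh bins and 3 of the 17 Actb bins. In Gapdh these were the bins from 0 to 500 bp, 750 to 1000 bp, 2500 to 2750 bp, 3250 to 3500 bp and from 3750 bp to the end. In Actb they were the bins at 750 to 1000 bp, 2250 to 2500 bp and 3500 to 3750 bp. Of the 17 and 18 bins, 2 of Actb and 2 of Gapdh had 0 reads in all 6 libraries and are among those just named. RefSeq lists 1 pseudogene named after Actb and 3 named after Gapdh on GRCm38. Copies listed under other names were not counted, so these numbers can understate the copies of either gene. The sources used here do not say how reads that match several places were mapped, and the part of such copies in the empty bins was not tested.

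**Figure D3:**
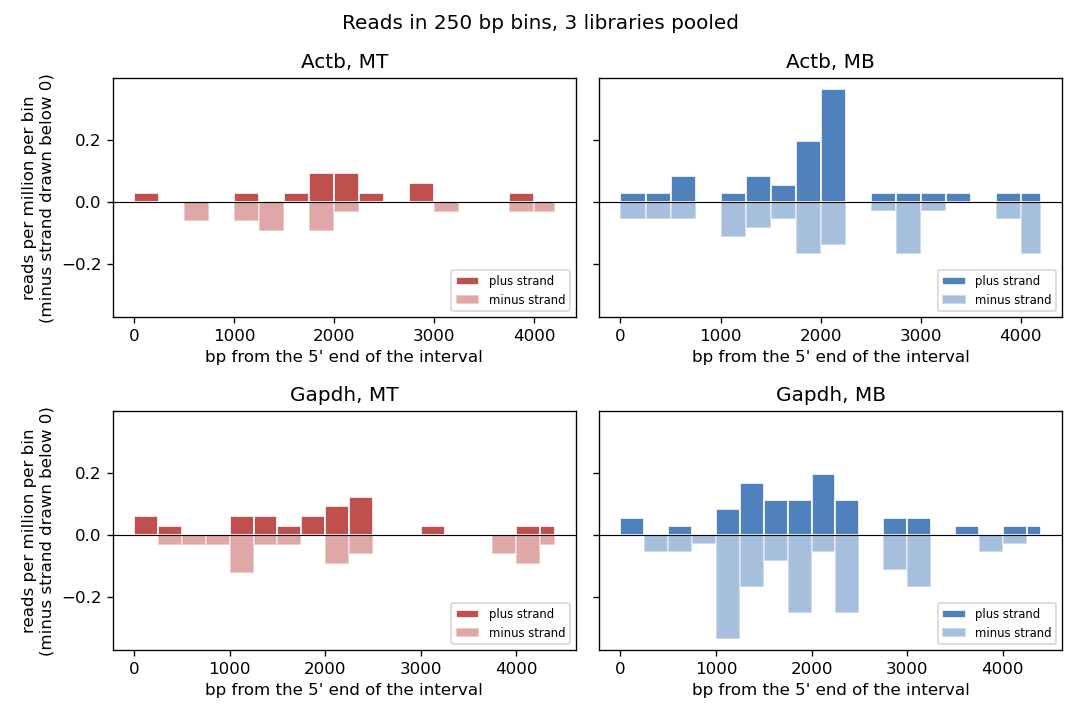
Reads per 1000000 reads per 250 bp bin (3 libraries pooled) along Actb and Gapdh, by distance from the 5′ end of the interval in bp, with plus-strand reads above 0 and minus-strand reads below, MT left and MB right. The reads of Actb gather around 2000 bp and those of Gapdh between 1000 and 2500 bp in both groups, and fewer lie there in MT.

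Reads on both strands contributed. In Actb 13 of the MT reads were on the plus strand and 14 on the minus strand, against 37 and 42 of the MB reads. In Gapdh 20 MT reads lay on each strand, against 38 plus-strand and 59 minus-strand MB reads. The part of the interval from its middle to the 5′ end held 78.5% ± 18.7 of the Actb reads in MT and 58.8% ± 27.2 in MB (SD, n = 3 each; exact permutation test, two-sided, p = 0.5). For Gapdh it held 61.8% ± 10.2 in MT and 65.3% ± 8.49 in MB (exact permutation test, two-sided, p = 0.6). No shift along either gene was detectable with these counts; MT replicate 2 had both of its Actb reads in that part.

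The deposited peak lists placed 0 MT peaks and 1 MB peak on each gene. The Gapdh peak, chr6:125114552-125114876, lay wholly inside the interval, 1024 to 1348 bp from its 5′ end. It held 4, 3 and 2 reads in MT replicates 1, 2 and 3 and 5, 9 and 7 reads in MB replicates 1, 2 and 3, or 0.943 ± 0.492 RPKM in MT and 1.88 ± 0.671 RPKM in MB (SD, n = 3 each; exact permutation test, two-sided, p = 0.2). The peak overlaps the densest Gapdh bin, and the groups overlapped in it.

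The MB peak at Actb, chr5:143664276-143664614, crossed the 3′ boundary and shared 115 bp with the interval. It held 3, 0 and 2 reads in MT replicates 1, 2 and 3 and 7, 5 and 5 reads in MB replicates 1, 2 and 3, or 0.473 ± 0.508 RPKM in MT and 1.52 ± 0.655 RPKM in MB (exact permutation test, two-sided, p = 0.2), and the groups overlapped. The densest Actb bins held no peak of either list. The flanks held 1 further MB peak, chr5:143655173-143655373, past the 3′ end of Actb, and 0 MT peaks.

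Both genes lay between H2Bub domains and not in one. The nearest MB domain past the 3′ end of Actb, chr5:143513565-143571715, was 92.8 kb away and had 0.522 ± 0.150 RPKM in MT and 1.97 ± 0.326 RPKM in MB (SD, n = 3 each). On the upstream side the nearest, chr5:143850343-143874053, was 182 kb away and had 0.568 ± 0.0142 RPKM in MT and 2.91 ± 0.243 RPKM in MB. The nearest domain past the 3′ end of Gapdh, chr6:125048085-125064577, was 46.9 kb away, with 0.467 ± 0.110 RPKM in MT and 1.04 ± 0.170 RPKM in MB. On the upstream side of Gapdh the nearest was 298 kb away (0.512 RPKM in MT, 1.54 RPKM in MB). Shorter stretches dense in MB lay closer, upstream of both genes. The 5 kb bin at -62.5 kb from the 5′ end of Actb had 0.410 RPKM in MT and 2.35 RPKM in MB. For Gapdh the bin at -22.5 kb had 0.497 RPKM in MT and 1.36 RPKM in MB. The nearest MT peak was 59.4 kb from Actb, on its upstream side, and 34.4 kb from Gapdh, past its 3′ end.

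In myoblasts the 5 kb bin with the highest density within 250 kb had 0.466 RPKM in MT and 3.83 RPKM in MB around Actb, and 0.783 RPKM in MT and 3.53 RPKM in MB around Gapdh. It lay 198 kb upstream of the 5′ end of Actb and 153 kb downstream of that of Gapdh. The MB values of the genes, 0.510 and 0.612 RPKM, were close to the median 5 kb bin of the Actb surroundings (0.438 RPKM in MT, 0.472 RPKM in MB) and above that of the Gapdh surroundings (0.456 RPKM in MT, 0.330 RPKM in MB), with no test made.

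**Figure D4:**
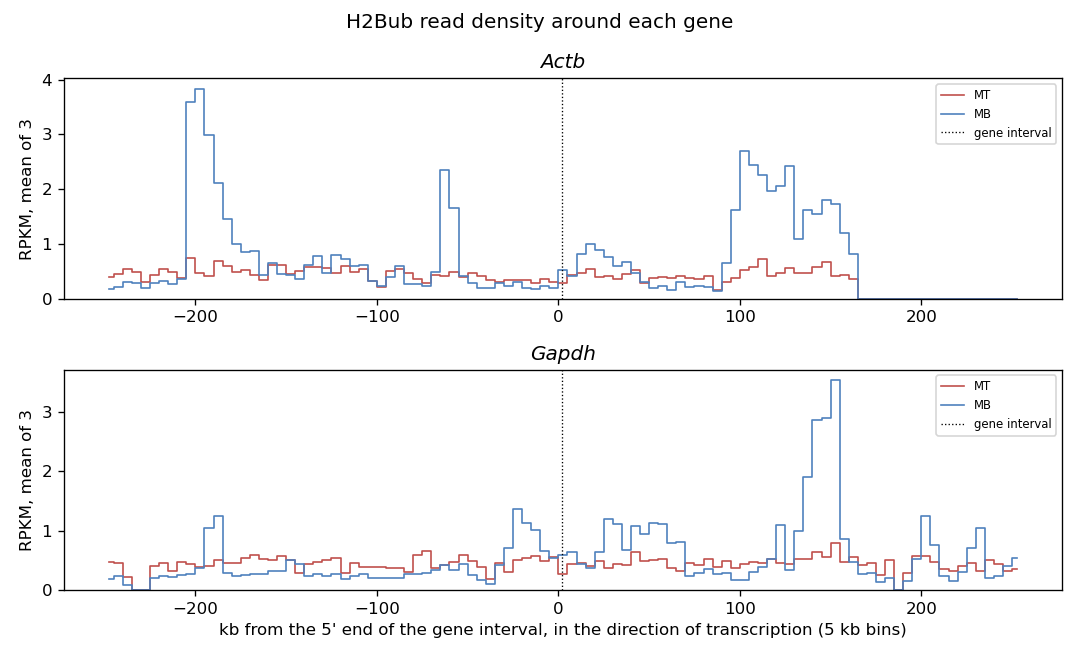
Mean H2Bub read density (RPKM, 3 libraries, 5 kb bins) within 250 kb of Actb and Gapdh, by distance in kb from the 5′ end of the gene interval along the direction of transcription, for MT and MB. In MB the genes (dotted lines) lie far below the maxima, which reach 3.83 RPKM near Actb and 3.53 RPKM near Gapdh. The MT trace reaches at most 0.783 RPKM.

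No difference between the 2 genes in the size of the fall was detectable. The density of Actb over that of Gapdh differed by -0.51 on the log2 scale (MT minus MB; exact permutation test, two-sided, p = 0.5), with library values of -0.21, -2.003 and -0.17 in MT replicates 1, 2 and 3 and 0.07, -0.91 and 0.00 in MB replicates 1, 2 and 3. Replicate 2 was the lowest in both groups, and without MT replicate 2 the difference was 0.09. In order of mean level, Gapdh came before Actb in both groups, with densities that overlapped between the genes in MT and in MB.

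The 4 kb windows most like each gene over the 6 libraries, by Euclidean distance of log2(RPKM + 0.1), held no peak of either list. For Actb they were chr1:187128001-187132000 (0.49), chr4:100448001-100452000 (0.58) and chr3:121004001-121008000 (0.59). For Gapdh they were chr2:142696001-142700000 (0.19), chr18:68028001-68032000 (0.20) and chr11:95900001-95904000 (0.21). Within a distance of 0.5 lay 1 window for Actb and 225 for Gapdh, of 613730, so fewer windows lay near Actb. The Actb pattern includes MT replicate 2, which rests on 2 reads, and distances without that library were not computed.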

How the data were processed

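The authors deposited 1 list of mapped read positions per library (chromosome, position, strand), on mm9 per the submitters' processing notes, and 1 peak list per group without scores. The sources used here name no aligner, read length, filter or peak caller. No position and strand was listed more than 1 time in a library, so no duplicates could be removed here and dense places can be understated. The members and lists were chosen with earlier results of these data known. Positions were counted in the gene intervals, in 250 bp bins and 10 kb flanks, and in 4 kb and 10 kb windows of chromosomes 1 to 19 and X; these counts were made here. Scaling was by reads on those chromosomes; background scaling used trimmed means of log ratios over 10 kb windows, computed here. The floor asked for 15 reads in all and for 10 or more, scaled to the median library, in 3 libraries (2 with a library left out). Tests were limma 3.58.1 voom (R 4.3.3), two-sided, Benjamini-Hochberg adjusted over all rows tested, threshold 0.05, and exact permutation tests over libraries (SciPy 1.17.1, 0.5 reads added in ratios within a library and in their logs). The limma fit was also run on simulated counts in which most windows had equal means in both groups. That setting lacks the shift of the median window seen here. The members were named by rule, and windows most like them by distance, since no mm9 annotation was used here. Depth ranged from 8759266 to 15891204 reads. Same-numbered libraries deviated together with correlations of 0.000452, -0.169 and 0.150, and the numbers were therefore not treated as pairs. Labels give each library its own antibody lot number, so no lot is shared between MT and MB. A difference between lots cannot be told apart from one between libraries or between the groups. Counting and plots used Python 3.11.15 with pandas 2.3.3, NumPy 2.4.6 and matplotlib 3.10.9.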

Additional observations from a re-analysis of the deposited data

How the results depend on the processing

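The log2 fold changes of both genes kept their sign and their call under all 14 alternatives tried on each: background scaling, the replicate block, no floor, limma-trend, shifted positions, intervals changed by 500 bp, the union of peaks as the table, and each library left out. With the union of peaks, 64622 of the 65412 rows tested were called lower and 13 higher. Those rows are peaks called on these same libraries, so a lower call there adds no support. With 1 library left out the log2 fold changes ranged from -2.03 to -0.96 for Actb and from -1.21 to -0.99 for Gapdh. The replicate block gave -1.34 for Actb and -1.12 for Gapdh and changed no call on genes or flanks. With background scaling the flanks were at -0.90 past the 3′ end of Actb, -0.068 upstream of Actb, -0.94 past the 3′ end of Gapdh and -0.83 upstream of Gapdh. With 1 library left out, the flank upstream of Actb ranged from 0.43 to 1.03, and that upstream of Gapdh from -0.34 to 0.01 (0.0093 without MB replicate 3); the cause was not tested. Of the 456775 rows tested, the 4 kb windows and the 2 genes together, 294721 were called (229292 higher, 65429 lower), against 97385 (4397 higher, 92988 lower) with background scaling and 190024 to 273386 with 1 library left out, the lowest without MB replicate 2. The share of reads between the middle and the 5′ end of Actb, 19.6 points higher in MT, became -8.15 points with the interval widened and 4.51 to 30.9 points with 1 library left out. That of Gapdh, -3.55 points, became 2.14 points with the interval narrowed and -9.02 to 1.29 points with 1 library left out. Actb over Gapdh ranged from -0.83 to 0.0898 (without MT replicate 2), and gene over flanks from -2.07 to -1.08 (the weakest without MT replicate 2) for Actb and from -1.07 to -0.77 for Gapdh. Depth limits the 250 bp bins, which held 0 to 8 reads per library.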
